A study of Mus musculus with 6 samples.

Results

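Proenkephalin (*Penk*), the other opioid precursor *Pdyn*, the opioid receptors and the enzymes that cut and trim peptide precursors were examined in smooth muscle cells of the mouse pulmonary artery (mPASMCs) after knockdown of the long noncoding RNA *Snhg18*. The 10 genes, *Penk*, *Pdyn*, *Oprd1*, *Oprk1*, *Oprm1*, *Ogfr*, *Pcsk1*, *Pcsk2*, *Cpe* and *Pam*, were found by symbol among the 55487 genes of the count table. *Penk* was chosen by its read counts, which were higher after knockdown in these same libraries, so its values are a description without a test, and the other 9 genes were taken for their role, with earlier results of these data known. The mPASMCs were bought as cultured mouse cells and transfected with a control siRNA (si-NC) or an siRNA against *Snhg18* (si-*Snhg18*), with 3 mRNA libraries in each group. The labels name no other allele, agent or time, and the oxygen level of these cultures and the time after transfection were not given in the sources used here. Nothing states that the 3 libraries of a group came from separate cultures, so the p-values measure the spread between these libraries, which may be technical. *Snhg18* was at 22.7 ± 0.711 CPM (TMM-normalized reads relative to library size, mean ± SD) in the controls and 10.6 ± 0.590 CPM after knockdown (n = 3 each), a partial reduction. Libraries held 18097718 to 25988746 counted reads. Both libraries numbered 2 departed from their groups in the same direction, with a correlation of 0.742 between their deviations over the 14531 tested genes.

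Opioid peptides are made as larger precursor proteins. Proenkephalin carries several copies of the enkephalins, short peptides that act mainly on the delta and mu opioid receptors, which signal through inhibitory G proteins to adenylyl cyclase. In the secretory pathway the convertases PC1/3 (*Pcsk1*) and PC2 (*Pcsk2*) cut precursors after pairs of basic residues, carboxypeptidase E (*Cpe*) removes the basic residues left at the new end, and peptidylglycine monooxygenase (*Pam*) amidates those peptides that end in glycine. *Penk* is best known from neurons and the adrenal medulla and is also made by some mesenchymal cells.

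*Penk* (ENSMUSG00000045573) is a minus-strand gene of chromosome 4 (4133531 to 4138819 in GRCm38, the build of the count table). Its transcript has 2 exons, 1449 bases and 804 coding bases, or 268 codons. A search of the coding sequence for the enkephalin codons found 6 copies of Met-enkephalin and 1 of Leu-enkephalin, all in exon 2. They are shown because pairs of basic codons beside them code for residues on which the convertases and carboxypeptidase E act. The search matched the enkephalin codons only, and which peptides are released was not examined. The sequences come from the GENCODE transcript on GRCm38 and are read 5′ to 3′ on the minus strand, with the 15 bases that code for the enkephalin in capitals and 6 flanking bases on each side in lower case. From codon 100 to codon 266 the copies read as follows.
copy 1, Met-enkephalin, chr4:4134328-4134354: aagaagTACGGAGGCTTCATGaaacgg
copy 2, Met-enkephalin, chr4:4134307-4134333: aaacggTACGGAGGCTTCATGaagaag
copy 3, Met-enkephalin, chr4:4134220-4134246: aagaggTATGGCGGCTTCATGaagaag
copy 4, Met-enkephalin, chr4:4134067-4134093: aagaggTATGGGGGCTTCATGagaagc
copy 5, Met-enkephalin, chr4:4133995-4134021: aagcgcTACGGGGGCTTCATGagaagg
copy 6, Leu-enkephalin, chr4:4133935-4133961: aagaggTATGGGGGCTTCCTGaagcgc
copy 7, Met-enkephalin, chr4:4133842-4133868: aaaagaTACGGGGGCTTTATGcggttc

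A pair of codons for basic residues stood directly before each of the 7 copies and directly after 5 of them. Copies 4 and 7 had a single basic codon after the enkephalin, and the coding sequence held 12 adjacent pairs of basic codons in all. The 7 copies used 6 different stretches of 15 bases, since copies 1 and 2 had the same one. These are the annotated sequences, and the counts per gene do not show which part of the transcript the reads covered.

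*Penk* was low in every si-NC library and higher in every si-*Snhg18* library. The control libraries si-NC 1, 2 and 3 held 59, 60 and 56 reads of *Penk*, or 2.54, 2.45 and 2.37 CPM. The libraries si-*Snhg18* 1, 2 and 3 held 581, 449 and 353 reads, or 23.0, 17.2 and 19.3 CPM. The groups did not overlap, as chosen, and the control libraries lay closer together than the knockdown libraries. The mean was 2.45 ± 0.0874 CPM in controls and 19.8 ± 2.90 CPM after knockdown (SD, n = 3 each), an 8.09-fold difference and a log2 fold change of 3.01, which ranked 13 among the 14531 tested genes. Between same-numbered libraries the fold was 9.03, 7.05 and 8.15. Per kb of exon the level was 1.69 ± 0.0603 CPM in controls and 13.7 ± 2.00 CPM after knockdown. The gene on the opposite strand at this locus, *A830012C17Rik*, had at most 1 read in any library. In bulk RNA, more *Penk* transcript per cell and more cells that make it cannot be told apart.

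**Figure D1:**
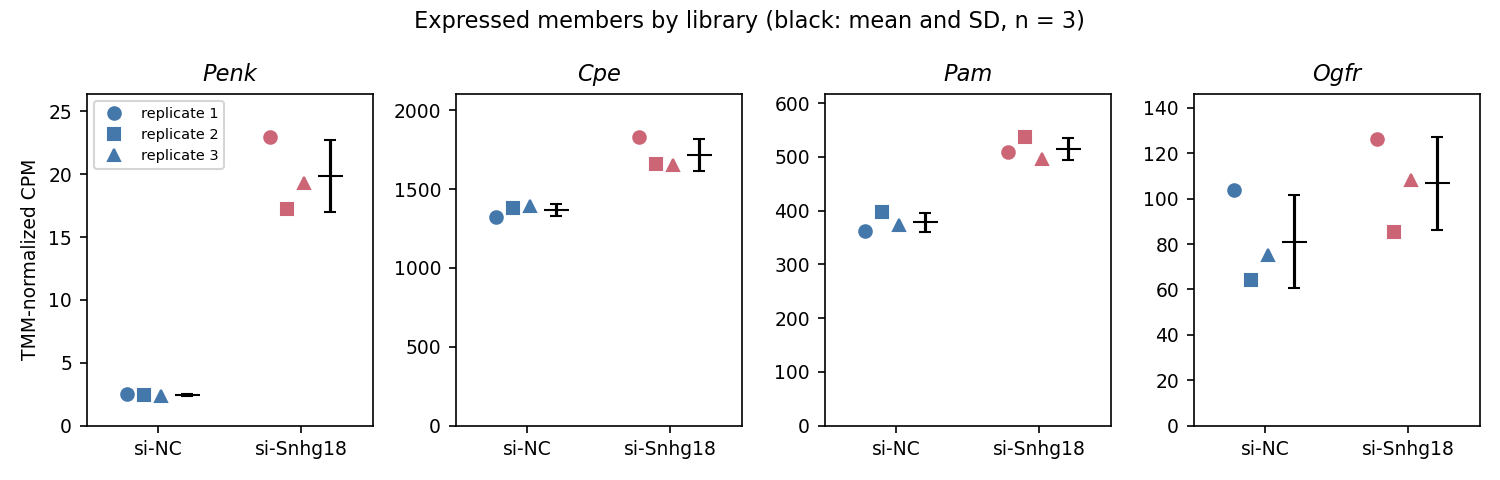
TMM-normalized CPM (vertical axes from 0, 1 scale per gene) of *Penk*, *Cpe*, *Pam* and *Ogfr* in the 3 si-NC libraries (blue) and the 3 si-*Snhg18* libraries (red), with a marker shape for each replicate number and the mean and SD in black. *Penk* sat at 2.37 to 2.54 CPM in si-NC and 17.2 to 23.0 CPM in si-*Snhg18*, the groups of *Cpe* and *Pam* lay apart, and those of *Ogfr* overlapped.

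The classical opioid receptors and prodynorphin were at or near 0 in these cells. *Pdyn*, which encodes the precursor of the dynorphins (chromosome 2, 129686565 to 129699844), had 0 reads in all 6 libraries. *Oprm1*, the mu receptor (chromosome 10, 6758506 to 7038198), and *Oprk1*, the kappa receptor (chromosome 1, 5588466 to 5606131), also had 0 reads in all 6. *Oprd1*, the delta receptor (chromosome 4, 132110726 to 132144486), had 4 reads in si-*Snhg18* 1 and 0 in the other 5 libraries. A count of 0 allows up to 3 reads, which is 0.115 to 0.166 CPM depending on the library and covers counting error only, so lower levels of these receptors were not detectable at this depth. None of these 4 genes had enough reads to be tested.

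*Ogfr*, the opioid growth factor receptor, was the gene of this family with the most reads. It encodes a nuclear protein that binds Met-enkephalin and is unrelated in structure to the G protein-coupled receptors. It lies on the plus strand of chromosome 2 from 180589245 to 180595836. *Ogfr* was at 104, 64.1 and 75.3 CPM in si-NC 1, 2 and 3, and at 126, 85.5 and 108 CPM in si-*Snhg18* 1, 2 and 3. Each knockdown library was above the control library of the same number, by 1.22, 1.33 and 1.44 times, but the groups overlapped because both libraries numbered 2 were the lowest of their group. The means were 81.0 ± 20.4 and 107 ± 20.5 CPM (SD, n = 3 each). The log2 fold change was 0.40 (SE 0.21), with an adjusted p of 0.303 by the quasi-likelihood test of edgeR over all tested genes. With the replicate block, a model that also includes the replicate number, it was 0.41 (SE 0.07) with an adjusted p of 0.00509, so the call depended on whether same-numbered libraries were compared with each other.

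The remaining opioid ligands and receptors were low. *Pomc*, the precursor of beta-endorphin, had 3, 8 and 4 reads in si-NC libraries and 17, 14 and 11 in si-*Snhg18* libraries. These groups did not overlap, and the ratio of reads relative to effective library size was 2.87. *Pomc* passed the filter on low counts only through the si-*Snhg18* libraries, so no test is given. *Pnoc*, which encodes pronociceptin, had 2, 4 and 1 reads in si-NC libraries and 0 in the 3 others, and its receptor gene *Oprl1* had at most 3 in any library. *Ackr3*, an atypical chemokine receptor that also takes up opioid peptides, was at 4.53, 11.8 and 3.47 CPM in si-NC libraries and 0.593, 5.38 and 1.70 CPM in si-*Snhg18* libraries. Its libraries numbered 2 were the highest of each group, the groups overlapped, and the log2 fold change of -1.35 (SE 0.81) had an adjusted p of 0.352, against 0.0158 with the block. It ranged from -0.64 without si-NC 2 to -2.58 without si-*Snhg18* 2 (adjusted p = 0.0471), and was -0.88 without si-*Snhg18* 1. *Ogfrl1*, a relative of *Ogfr*, was at 14.6 ± 1.54 and 13.2 ± 1.61 CPM (adjusted p = 0.578). Of the 11 ligands and receptors listed, 4 besides *Penk* had enough reads to be tested, *Pomc* among them, and edgeR called 0 of them, against 7.36% of all tested genes. DESeq2 also called 0, against 2124 of all tested genes, and gave no adjusted p for *Pomc*. The 1 gene with an unadjusted edgeR p under 0.05 was *Pomc*, whose test is not support for a difference. Under the block, *Ogfr* was called higher and *Ackr3* lower, against 27.2% of all tested genes.

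Neither of the convertases known for proenkephalin was well expressed. *Pcsk1* (chromosome 13, 75089826 to 75134861) had 14, 6 and 19 reads in si-NC libraries and 19, 8 and 6 in si-*Snhg18* libraries, or 0.551 ± 0.283 and 0.462 ± 0.250 CPM (SD, n = 3 each). The groups overlapped, and the log2 fold change was -0.23 (SE 0.58, adjusted p = 0.838 by the quasi-likelihood test of edgeR). Its sign was not stable, being 0.14 without si-NC 3 and 0.01 without si-*Snhg18* 2. *Pcsk2* (chromosome 2, 143546156 to 143816285) had 2 reads in si-*Snhg18* 1 and 0 in the other 5 libraries. The binding proteins of these convertases were low as well. *Scg5*, which encodes the PC2 chaperone 7B2, was at 0.228 ± 0.196 and 0.689 ± 0.501 CPM (adjusted p = 0.333), and *Pcsk1n*, which encodes the PC1/3 inhibitor proSAAS, had at most 2 reads in any library.

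*Furin*, the convertase of the constitutive secretory route that also cuts after basic residues, made up most of the convertase transcripts. Per kb of exon it accounted for 67.6 ± 3.74% of the summed CPM of the 9 convertases in controls and 77.2 ± 4.36% after knockdown (SD, n = 3 each). *Pcsk1* made up 0.0695 ± 0.0296% and 0.0466 ± 0.0167% of the same sum. *Furin* was at 469, 339 and 481 CPM in si-NC 1, 2 and 3 and 769, 439 and 653 CPM in si-*Snhg18* 1, 2 and 3. Both libraries numbered 2 were again the lowest, and the groups overlapped. The log2 fold change was 0.53 (SE 0.23, adjusted p = 0.215, 0.00369 with the block and 0.0268 without si-*Snhg18* 2). *Mbtps1*, the Golgi site-1 protease, was at 164 ± 16.3 CPM in controls and 106 ± 26.4 CPM after knockdown, a log2 difference of -0.62. Its adjusted p was 0.0917 from edgeR, 0.0162 with DESeq2, 0.00234 with the block and 0.00705 without si-*Snhg18* 2. *Furin* and *Mbtps1* were singled out after their values had been seen.

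*Cpe* and *Pam*, the enzymes that act after the convertases, were both strongly expressed and rose. *Cpe* (ENSMUSG00000037852, minus strand of chromosome 8, 64592542 to 64693054, a transcript of 9 exons and 2117 bases) was at 1326, 1383 and 1393 CPM in si-NC 1, 2 and 3. In si-*Snhg18* 1, 2 and 3 it was at 1831, 1656 and 1655 CPM. The groups did not overlap, as in 30.9% of all tested genes, and the knockdown library numbered 1 stood above the other two. The means were 1367 ± 36.2 and 1714 ± 101 CPM (SD, n = 3 each), a fold of 1.25 and a log2 fold change of 0.33 (SE 0.07, adjusted p = 0.0427 by the quasi-likelihood test of edgeR). Between same-numbered libraries the fold was 1.38, 1.20 and 1.19.

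*Pam* (ENSMUSG00000026335, minus strand of chromosome 1, 97795114 to 98095646, a transcript of 26 exons and 4102 bases) was at 363, 398 and 374 CPM in si-NC 1, 2 and 3. It was at 508, 537 and 497 CPM in si-*Snhg18* 1, 2 and 3. The groups did not overlap, and in both of them the library numbered 2 was the highest. The means were 378 ± 18.3 and 514 ± 20.8 CPM (SD, n = 3 each), a fold of 1.36 and a log2 fold change of 0.44 (SE 0.07, adjusted p = 0.0198 by the quasi-likelihood test of edgeR). The fold between same-numbered libraries was 1.40, 1.35 and 1.33. A processed pseudogene, *Gm3531*, lies within *Pam* on the same strand and had 112 to 144 reads per library, against 8406 to 13991 for *Pam*.

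Of the 9 genes other than *Penk*, 4 had enough reads to be tested and 2 were called, *Cpe* and *Pam*, both higher, against 7.36% of all tested genes called in either direction and 3.65% called higher (3.71% were called lower). Both calls were narrow. Leaving out any library except si-*Snhg18* 2 ended both, with adjusted p-values from 0.0907 to 0.205 for *Cpe* and from 0.0548 to 0.124 for *Pam*, while without si-*Snhg18* 2 they were 0.0224 and 0.0130. Without a filter on low counts the adjusted p of *Cpe* was 0.0665. The log2 fold changes moved little, from 0.28 to 0.35 for *Cpe* and from 0.41 to 0.48 for *Pam*. Per kb of exon, the order of the detected genes in si-NC cells was *Cpe* at 646 ± 17.1, *Pam* at 92.2 ± 4.46, *Ogfr* at 33.1 ± 8.34, *Penk* at 1.69 ± 0.0603 and *Pcsk1* at 0.109 ± 0.0562 CPM. Neighbours in this order lay further apart than their SDs, and the order was the same in si-*Snhg18* cells.

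The wider set of 22 processing enzymes and their binding proteins held 18 tested genes. Of these, *Cpe* and *Pam* were called higher (11.1%, against 7.36% of all tested genes called and 3.65% called higher) and 0 lower, 10 others lay above 0 and 6 below, and the median log2 fold change was 0.18, beside 0.01 over all tested genes. DESeq2 called 3 (2124 over all genes), *Cpe* and *Pam* higher and *Mbtps1* lower. With the block, 8 were called higher and 2 lower, against 13.6% of all tested genes called higher and 27.2% in either direction. Besides *Cpe* and *Pam*, the 6 called higher were *Furin*, *Pcsk7*, *Scg5*, *Qpctl*, *Ctsl* and *Ctsh*, and the 2 called lower were *Mbtps1* and *Pcsk6*. Cathepsin L (*Ctsl*), a protease that can also cut proenkephalin, was the next most abundant after *Cpe* per kb of exon, at 212 ± 3.82 CPM in controls and 242 ± 13.7 CPM after knockdown. Its log2 fold change was 0.19 (SE 0.07, adjusted p = 0.142, 0.0465 with the block and 0.0393 without si-*Snhg18* 2). *Cpe* made up 95.5 ± 0.735% and 96.0 ± 1.18% of the summed CPM per kb of 5 carboxypeptidases that remove basic residues, and *Cpd* 4.50 ± 0.726% and 3.96 ± 1.17%.

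**Figure D2:**
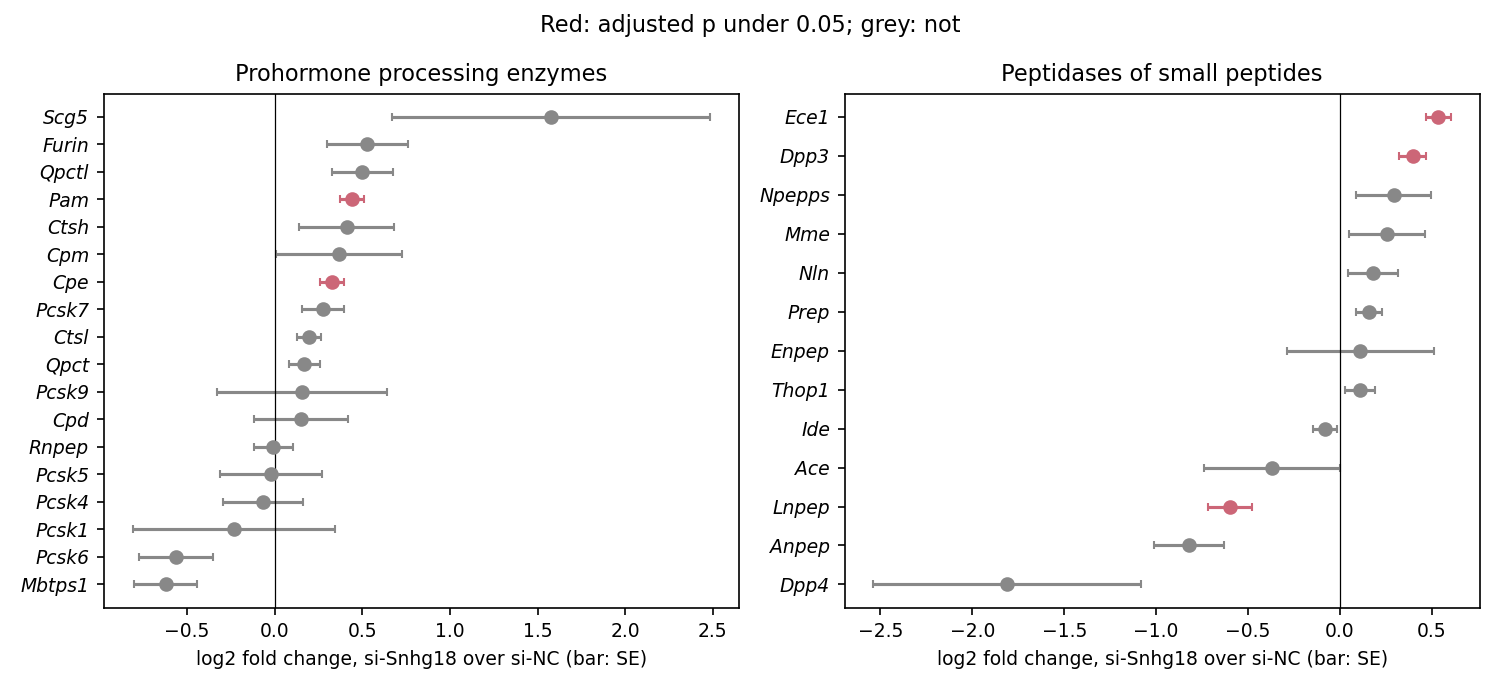
Log2 fold changes of si-*Snhg18* over si-NC (horizontal axes) with their standard errors (bars) for the 18 tested processing genes (left) and the 13 tested peptidases (right), ordered by value. Red points, *Cpe* and *Pam* on the left and *Ece1*, *Dpp3* and *Lnpep* on the right, passed an adjusted p of 0.05 in edgeR's quasi-likelihood test.

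Genes of the regulated secretory granule, in which neuroendocrine cells store peptides, were mostly scarce. Of 17 listed, 8 had enough reads to be tested. *Chga*, *Chgb* and *Scg3*, which encode granins, had at most 7, 8 and 5 reads in any library. *Scg2*, another granin, had 0, 0 and 1 reads in si-NC libraries and 6, 14 and 7 in si-*Snhg18* libraries. Its ratio of 27.7 rests on 1 control read, and it was not tested. *Ptprn*, a granule membrane protein, was the most abundant of the list per kb of exon. It was at 175, 146 and 187 CPM in si-NC 1, 2 and 3 and 264, 205 and 260.1 CPM in si-*Snhg18* 1, 2 and 3. The groups did not overlap, and the log2 fold change of 0.52 (SE 0.14) had an adjusted p of 0.0728 with edgeR, 0.0136 with DESeq2, 0.00137 with the block and 0.0140 without si-*Snhg18* 2. The small GTPase gene *Rab3a*, next in abundance, was at 12.8 ± 1.26 and 9.93 ± 0.478 CPM (adjusted p = 0.133). EdgeR called 0 of the 8 (7.36% of all tested genes), DESeq2 2 (2124 over all genes) and the block 2 (27.2% of all tested genes). Of the 8, 4 had an unadjusted p under 0.05, as had 3613 of the 14531 tested genes. The median log2 fold change of the 8 was -0.15.

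Peptidases that break down enkephalins and other small peptides changed in both directions. Of 15 listed, 13 were tested and 3 were called (23.1%, against 7.36% of all tested genes), and the median log2 fold change was 0.11. *Ece1*, endothelin-converting enzyme, rose from 135 ± 3.78 to 195 ± 11.3 CPM (SD, n = 3 each; log2 fold change 0.53, SE 0.07, adjusted p = 0.0125). *Dpp3*, a dipeptidyl peptidase that cleaves enkephalins, rose from 66.9 ± 1.23 to 88.0 ± 6.03 CPM (0.40, SE 0.07, adjusted p = 0.0305). *Lnpep*, the insulin-regulated aminopeptidase, fell from 228 ± 19.4 to 151 ± 20.6 CPM (-0.60, SE 0.12, adjusted p = 0.0369). The groups did not overlap in any of these 3 genes, but they were picked by their calls, and 30.9% of all tested genes did not overlap. All 3 calls were lost when si-NC 1, si-NC 2, si-NC 3 or si-*Snhg18* 3 was left out.

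Of the classical enkephalinases, neprilysin was low and not called, and aminopeptidase N lay at the threshold. Neprilysin (*Mme*) was at 7.94 ± 2.01 CPM in controls and 9.49 ± 1.01 CPM after knockdown (adjusted p = 0.486 from edgeR). Aminopeptidase N (*Anpep*) was at 31.7, 34.9 and 27.6 CPM in si-NC libraries and 15.1, 22.8 and 15.3 CPM in si-*Snhg18* libraries. These groups did not overlap, but its log2 fold change of -0.82 (SE 0.19) lay at the threshold, with an adjusted p of 0.0531 from edgeR. It was 0.00170 with DESeq2, 0.00236 with the block, 0.0486 with limma-voom, 0.0405 without a filter on low counts and 0.0494 with a filter at 1 CPM. RLE factors (0.0503) and library totals (0.0678) did not pass it. Without si-*Snhg18* 2 it was 0.00657, and without any other library 0.132 to 0.205. *Npepps*, the puromycin-sensitive aminopeptidase and the most abundant of the list per kb of exon, was at 298 ± 42.0 and 365 ± 95.2 CPM (adjusted p = 0.426). *Ece1* was next, at 28.0 ± 0.785 and 40.6 ± 2.34 CPM per kb. The block called 2 peptidases higher and 3 lower, against 27.2% of all tested genes. *Mme* and *Anpep* were singled out after their values had been seen.

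Downstream of the opioid receptors, 21 of 27 listed Gi signaling genes were tested, 1 was called higher and 2 lower (14.3%, against 7.36% of all tested genes), and the median log2 fold change was 0.17. Adenylyl cyclase 3 (*Adcy3*) fell from 88.4 ± 0.962 to 60.2 ± 5.80 CPM (log2 fold change -0.55, SE 0.09, adjusted p = 0.0198 by the quasi-likelihood test of edgeR). *Adcy7*, another cyclase, fell from 131 ± 0.848 to 102 ± 5.71 CPM (-0.35, SE 0.07, adjusted p = 0.0304). The receptor kinase *Grk6* rose from 62.7 ± 2.44 to 79.8 ± 4.02 CPM (0.35, SE 0.07, adjusted p = 0.0386). The abundant inhibitory alpha subunits showed little difference. *Gnai2* was at 442 ± 7.37 and 467 ± 16.6 CPM (log2 fold change 0.08, SE 0.06, adjusted p = 0.457), and *Gnai3* at 172 ± 7.81 and 175 ± 23.7 CPM (0.02, SE 0.11, adjusted p = 0.919). *Kcnj5*, *Kcnj6* and *Kcnj9*, subunits of potassium channels that these G proteins open, had 0 reads in all 6 libraries. With the block, 7 were called higher and 3 lower, against 27.2% of all tested genes. The 3 calls without the block were lost on leaving out si-NC 1, si-NC 2, si-NC 3 or si-*Snhg18* 3, and those of *Adcy7* and *Grk6* also without si-*Snhg18* 1.

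The *Penk* promoter is known in other cells as a target of CREB and AP-1 factors, and 19 of 20 listed genes of these families and their coactivators were tested, of which 3 were called (15.8%, against 7.36% of all tested genes). *Crtc3*, a CREB coactivator, rose from 34.0 ± 2.29 to 58.2 ± 8.82 CPM (log2 fold change 0.78, SE 0.13, adjusted p = 0.0215 by the quasi-likelihood test of edgeR). *Atf1*, a close relative of CREB, fell from 55.6 ± 1.84 to 36.6 ± 2.53 CPM (-0.60, SE 0.08, adjusted p = 0.0139). *Atf2* fell from 53.7 ± 0.563 to 38.3 ± 4.67 CPM (-0.49, SE 0.10, adjusted p = 0.0398). The median over the 19 was 0.01, the same as over all tested genes at this rounding, and the block called 6 higher and 3 lower, against 27.2% of all tested genes. Without si-NC 1, si-NC 2, si-NC 3 or si-*Snhg18* 3 none of the 3 genes was called, and without si-*Snhg18* 1 *Atf2* was not. The most abundant per kb of exon, *Atf4* and *Jund*, were at 173 ± 14.6 and 209 ± 66.6 CPM (adjusted p = 0.491) and at 149 ± 14.8 and 182 ± 31.7 CPM (adjusted p = 0.278). *Jund* passed with the block (0.0265) and without si-*Snhg18* 2 (0.0283).

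Among 35 other precursors of peptides, hormones and growth factors, 12 were tested, 2 were called higher, *Calcb* among them, and 2 lower (33.3%, against 7.36% of all tested genes), and the median log2 fold change was 0.22. *Calcb*, the precursor of beta calcitonin gene-related peptide, had 2 reads in each si-NC library and 31, 161 and 30 reads in si-*Snhg18* 1, 2 and 3. It passed the filter on low counts only through the si-*Snhg18* libraries, so its call is not support for a difference and no p is given. The share of 33.3% includes this call. The highest value was that of si-*Snhg18* 2 at 6.19 CPM. The ratio of *Calcb* reads relative to effective library size was 37.9. The edgeR log2 fold change was 5.09 with all libraries and 3.99 without si-*Snhg18* 2. Its paralog *Calca* had at most 6 reads in any library, and reads shared by the 2 genes could have been divided between them. *Grn*, the precursor of the granulins, rose from 429.8 ± 19.2 to 534 ± 23.4 CPM (log2 fold change 0.31, SE 0.07, adjusted p = 0.0466 by the quasi-likelihood test of edgeR). Adrenomedullin (*Adm*), a vasodilator peptide, fell from 498 ± 20.6 to 379 ± 23.2 CPM (-0.39, SE 0.07, adjusted p = 0.0310), and *Igf1* fell from 15.2 ± 1.94 to 8.50 ± 1.38 CPM (-0.84, SE 0.17, adjusted p = 0.0369). The calls of *Grn*, *Adm* and *Igf1* were absent when any 1 library except si-*Snhg18* 2 was left out. The block called 5 higher, *Calcb* among them, and 2 lower, against 27.2% of all tested genes.

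*Cck*, the precursor of cholecystokinin, was by far the most abundant precursor in these cells, at 3429 CPM per kb of exon over the 6 libraries against 316 for *Adm* and 7.70 for *Penk*. It was at 2214, 1652 and 2223 CPM in si-NC 1, 2 and 3 and 2917, 2223 and 2988 CPM in si-*Snhg18* 1, 2 and 3. The libraries numbered 2 were the lowest of each group, and the fold between same-numbered libraries was 1.32, 1.34 and 1.34. The log2 fold change was 0.42 (SE 0.16), with an adjusted p of 0.175 from edgeR, 0.00174 with the block and 0.0369 without si-*Snhg18* 2. *Tac1*, the precursor of substance P, was low in both libraries numbered 2, at 9.91 CPM in si-NC 2 and 9.14 CPM in si-*Snhg18* 2, against 54.8 to 85.4 CPM in the other 4 libraries (adjusted p = 0.887). *Tac1* was singled out after its values had been seen.

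**Figure D3:**
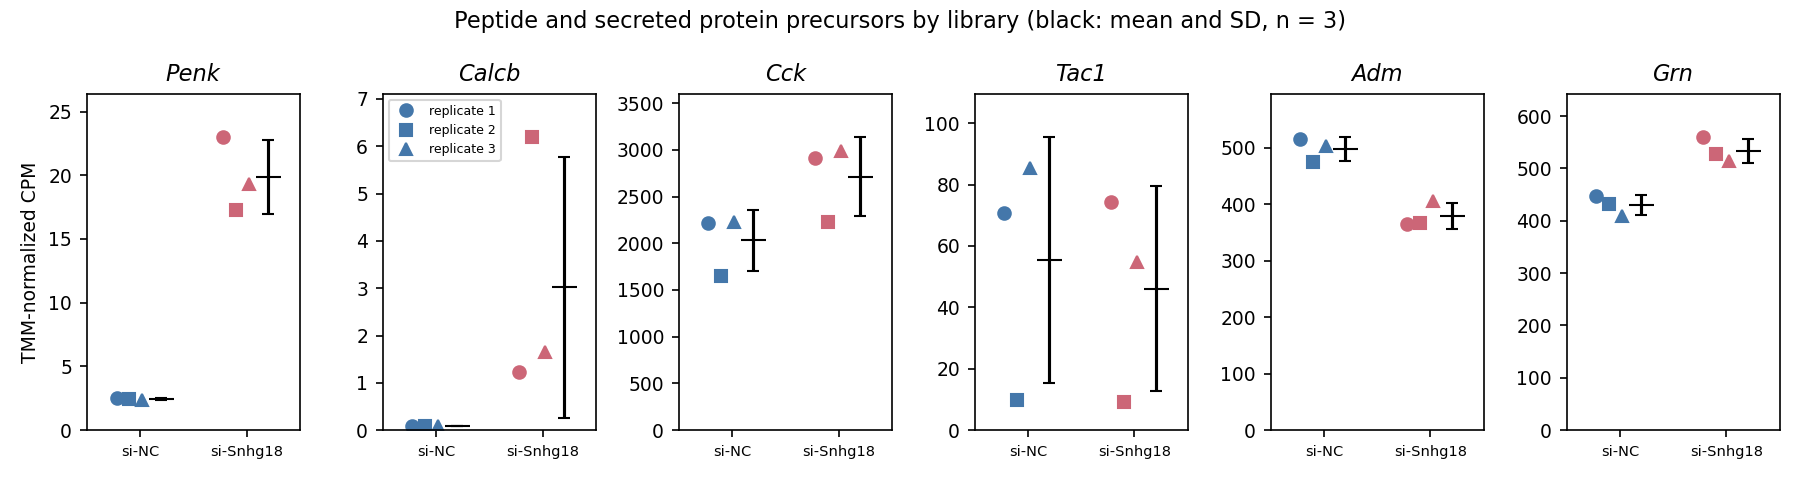
TMM-normalized CPM (vertical axes from 0, 1 scale per gene) of *Penk* and 5 other precursors by library, with marker shapes for the replicate numbers and the mean and SD (n = 3) in black. *Penk* and *Calcb* were lowest in the si-NC libraries and higher in each si-*Snhg18* library, *Adm* was lower and *Grn* higher, and both libraries numbered 2 were the lowest for *Cck* and *Tac1*.

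Over all these lists together, 95 of 147 genes besides *Penk* were tested, and 8 were called higher and 7 lower (15.8%, against 7.36% of all tested genes). The lists were chosen with results of these data known, so this share is a description. Without *Pomc* and *Calcb*, which passed the filter only through the si-*Snhg18* libraries, 14 of 93 were called (15.1%), 7 in each direction. The count was 23 with DESeq2 (2124 over all genes), and 30 higher and 15 lower with the block, against 27.2% of all tested genes. It fell to 0 with edgeR (0 to 158 over all genes) when si-NC 1, si-NC 2, si-NC 3 or si-*Snhg18* 3 was left out. In these 4 fits 26 to 28 of the listed genes had an unadjusted p under 0.05, as had 2464 to 2763 of the 14840 to 14950 genes tested. DESeq2 called 15 to 17 of the listed genes and 1003 to 1176 over all genes. The edgeR count was 7 without si-*Snhg18* 1 (319 over all genes) and 36 without si-*Snhg18* 2 (3281 over all genes).

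The labelled cell type was checked against marker genes. All 8 smooth muscle markers had more than 3 reads in some library, with a summed level of 1992 to 2132 CPM in si-NC and 1372 to 2083 CPM in si-*Snhg18* libraries, and 1 of them, *Tagln*, was called, lower (684 ± 6.87 to 480.3 ± 70.2 CPM, adjusted p = 0.0427 from edgeR, a call lost without any 1 library except si-*Snhg18* 2), or 12.5% against 7.36% of all tested genes. The block called 5 of the 8, all lower (27.2% of all tested genes), and they were *Tagln*, *Cnn1*, *Myl9*, *Myh11* and *Des*. The median log2 fold change of the 8 was -0.39, beside 0.01 over all tested genes. *Des*, which encodes desmin, was at 11.6 ± 6.999 and 3.34 ± 1.56 CPM (adjusted p = 0.0916 from edgeR, and 0.00154 with the block). Of 18 markers of neurons and neuroendocrine cells, in which *Penk* is best known, 10 had more than 3 reads in some library, *Th* was at 0, and their summed level was 90.6 to 96.1 CPM in si-NC and 63.4 to 77.9 CPM in si-*Snhg18* libraries. EdgeR called 0 of the 5 tested (7.36% of all tested genes), DESeq2 0 (2124 over all genes) and the block 2 (27.2% of all tested genes). The 2 called by the block were *Uchl1* and *Tubb3*, both lower. Of the 5, 2 had an unadjusted p under 0.05, as had 3613 of the 14531 tested genes. Some markers of this list were higher after knockdown. *Syp*, which encodes synaptophysin, had 1, 4 and 0 reads in si-NC libraries and 14, 34 and 7 in si-*Snhg18* libraries, and *Snap25* had 5, 3 and 9 against 13, 32 and 13. Of 12 endothelial and leukocyte markers, 8 had more than 3 reads in some library and 2 were at 0, with summed levels of 21.0 to 22.9 and 19.2 to 25.8 CPM. EdgeR called 0 of the 6 tested (7.36% of all tested genes) and DESeq2 0 (2124 over all genes). The block called 1, *Tek*, lower (27.2% of all tested genes). Of the 6, 1 had an unadjusted p under 0.05, against 3613 of the 14531 tested genes. The part of other cell types and of the smooth muscle markers in the *Penk* values was not tested.

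The genes whose log2 CPM followed *Penk* most closely over the 6 libraries were sought among the 11845 tested genes whose log2 CPM averaged 1 or more. Those with a Pearson correlation among the 5 highest, given as a description, included *Zfp523* (0.9995), *Kansl3* (0.9988), *Rnf157* (0.9986) and *Pithd1* (0.9984). Each of these correlations spans the contrast between the groups, and the genes share the 6 libraries and their depth. The steps of these genes were much smaller than that of *Penk*. *Rnf157*, an E3 ubiquitin ligase, was at 19.2 ± 0.316 and 43.4 ± 2.95 CPM, a fold of 2.26, and *Zfp523*, a zinc finger protein, at 21.9 ± 0.391 and 42.5 ± 1.92 CPM, a fold of 1.94. *Pithd1* differed by 1.92 and *Kansl3* by 1.72 times. As for *Penk*, si-*Snhg18* 1 was the highest of the knockdown libraries in each of these 4 genes. They were picked for their likeness to *Penk*, so this shared order is not a separate observation.

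**Figure D4:**
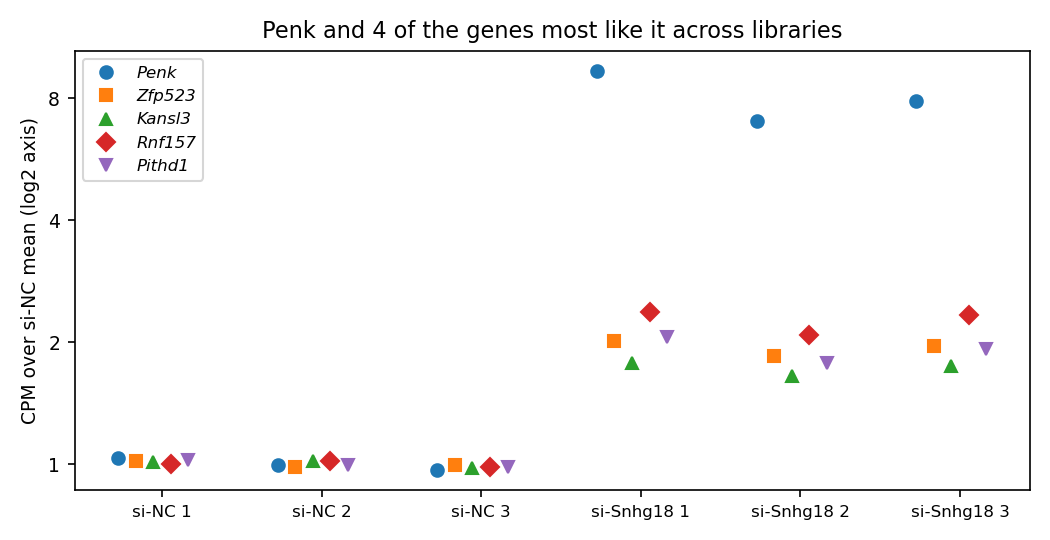
CPM of *Penk* and of 4 of the genes most like it, each divided by its own si-NC mean (vertical axis, log2 scale), in the 6 libraries (horizontal axis). All 5 genes lay near 1 in the si-NC libraries, and in the si-*Snhg18* libraries *Penk* lay above 7 while the others lay between 1 and 3.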

How the data were processed

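RNA sequencing of mPASMCs, with 3 si-NC and 3 si-*Snhg18* libraries, was analysed. The authors prepared the libraries with a stranded mRNA kit and deposited whole-number counts of reads per gene on GRCm38, without normalization. The submitters' processing notes name HISAT2 and mm10, and the counting program and strand setting were not given in the sources used here.

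The counts were tested with edgeR 4.0.16 (R 4.3.3). filterByExpr at a minimum count of 10 retained 14531 genes and left out 40956. After TMM normalization the groups were compared by the quasi-likelihood test (glmQLFit, glmQLFTest), and p-values were adjusted by Benjamini-Hochberg over all retained genes. A call is an adjusted p-value under 0.05 without a minimum fold. It was made for 1069 genes, 530 higher and 539 lower. CPM values are normalized by TMM, a prior count of 2 was added for log2 CPM, and levels of different genes are compared per kb of exon. A level of 3 reads was taken as the floor. With 3 libraries in each group an exact permutation test cannot give a two-sided p under 0.1. The scripts were tested on simulated data.

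The members and gene lists were chosen with earlier results of these data known. The text names all members, the called genes of each list (at most 5 of smallest p), the 2 most abundant genes of each list per kb, the 5 genes most like *Penk* (1 of them is not reported here), and *Snhg18*. Genes named outside this rule (other genes at or near 0 reads, genes called only with the block, markers, and those the text says were singled out) were chosen after values had been seen.

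Pairing of libraries rests on the repeat numbers, 1 to 3, that the labels give. The deviations of same-numbered libraries from their group means correlated at 0.41, 0.742 and 0.359 over 14531 genes. Deviations from a group mean cancel within the group, so these correlations are not independent. A shift shared by a single pair of libraries would tend to make the other correlations positive too. They therefore cannot show that every number marks a pair. That the numbers pair the libraries was assumed. A model that adds the replicate number (replicate block) is quoted where it changes a call, and its calls rest on this assumption. Alternatives were DESeq2 1.42.0, RLE factors, library totals, limma-voom (limma 3.58.1), other filters, the block and leaving out each library in turn.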

Additional observations from a re-analysis of the deposited data

How the results depend on the processing

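The log2 fold change of *Penk* stayed between 2.89 and 3.10 under every alternative run, each library left out included. The 1069 calls over all genes became 2124 with DESeq2, 3954 (27.2%) with the replicate block and 0 to 3281 with 1 library left out. At 0 calls (without si-NC 1, si-NC 3 or si-*Snhg18* 3) edgeR still gave 2464 to 2731 genes an unadjusted p under 0.05, and DESeq2 called 1003 to 1092. The 2 calls among the members other than *Penk* became 1 without a filter on low counts and 0 to 2 with 1 library left out. At 0 calls, 2 or 3 of these members had an unadjusted p under 0.05 and DESeq2 called 1 or 2. The 15 calls in the pathway lists became 23 with DESeq2, 45 with the replicate block and 0 to 36 with 1 library left out. Of 35 named genes with a test, 26 kept their side of the threshold with the replicate block and 9 passed it newly, and the block ended the call of none of the 35. Without si-*Snhg18* 2, 8 of the 35 passed it newly, as given beside each. RLE factors changed the side of the threshold of none of the 35. Library totals ended the call for *Atf2* and *Tagln*, limma-voom for *Calcb*, and the fit without a filter on low counts for *Cpe*, *Grk6*, *Grn* and *Dpp3*. DESeq2 brought *Ptprn*, *Mbtps1* and *Anpep* newly past the threshold. *Anpep* also passed it newly with limma-voom, without a filter on low counts and with a filter of at least 1 CPM in 3 libraries. The sign turned for *Pcsk1* (0.14 without si-NC 3 and 0.01 without si-*Snhg18* 2), *Gnai3* (-0.0012 and -0.10) and *Tac1* (0.20 and 0.22, in the same order), with adjusted p-values of 0.351 or more. With 1 library left out, these 3 ranged from -0.78 to 0.14, from -0.10 to 0.092 and from -0.80 to 0.22. The cause was not tested in any of these cases.

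Depth limits the genes at or near 0: a receptor below the floor of 0.115 to 0.166 CPM could not be seen. Reads carry no molecular identifiers, so floors cover counting error only.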
